A study of Equus caballus with 24 samples.

Results

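The genes described here form a block of neighbouring Ensembl identifiers, which holds the genes matched to ATP6, ND5 and KEF40. Every identifier from ENSECAG00000027663 to ENSECAG00000027700 was taken, which covers 38 identifiers, and 36 of them were among the 30371 genes with counts. The remaining 2 were not analysed here. The block was selected on measured values, since it was drawn around genes whose log2 fold change and adjusted p between allergic and healthy horses, from DESeq2, equalled the printed ones for these names. The printed values are labelled as fold changes and were read here as log2 values. The Remission Phase values identified ENSECAG00000027671 as the ATP6-matched gene and ENSECAG00000027694 as the ND5-matched gene, and the Clinical Phase values identified ENSECAG00000027676 as the KEF40-matched gene. In each case 1 gene of all those tested had the printed pair of values, while 0 genes had the pair printed for ATP6 in the Clinical Phase. There, ENSECAG00000027671 had the printed fold change, at -1.63, but an adjusted p of 6.4e-06 from DESeq2. The printed adjusted p has the same digits at another decimal place. Such a match is no annotation. The deposited files pair no identifier with a symbol. The reference gene table is of another horse assembly and gives an Ensembl identifier for 0 genes. The 30371 identifiers could therefore not be looked up in it. Whether the other members are mitochondrial genes could not be checked, so they are given by identifier only.

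IgE-binding monocytes were sorted from the blood of 7 allergic and 5 healthy Icelandic horses, and each horse was sampled in both phases, which gave 24 libraries. The allergic horses reacted each summer to bites of *Culicoides* midges, an allergy acquired in the field, and healthy horses shared the same pasture and exposure without clinical signs. The “Remission Phase” was sampled in winter, without midges and without signs in any horse, and the “Clinical Phase” in summer, when allergic horses had chronic signs. The horses were adult mares, with 1 gelding among the allergic horses, and healthy horses were younger at the median, so that age and allergy cannot be fully told apart. Cells were enriched by CD14 and then gated as CD14low, IgE+, MHCIIhigh, CD16- and CD163-. RNA was poly-A selected before sequencing. Since no symbols were paired with identifiers, the gate could not be checked against marker genes.

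The mitochondrial genome is a small circular chromosome, transcribed from both strands into long transcripts that are then processed into single RNAs. Its protein genes all encode subunits of the respiratory chain and of ATP synthase, which together turn the energy of nutrients into ATP. *ATP6* encodes a subunit of the proton channel of ATP synthase, and *ND5* encodes a subunit of complex I, where electrons from NADH enter the chain. The reference gene table lists 37 mitochondrial genes, of which 13 encode proteins, 2 are ribosomal RNAs and 22 are transfer RNAs. In that table, ATP6 overlaps ATP8 and COX3, and ND5 overlaps ND6. Libraries were directional, but whether strand was used in counting is not stated in what was read here, so counts on overlapping genes, or on nuclear copies of mitochondrial sequence, are uncertain. No entry of the table carries the name KEF40, and its role is not described here.

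Library totals, the sums of counts on genes, ran from 17558184 to 40404429 for the “Remission Phase” and from 14493071 to 24832163 for the “Clinical Phase”. Levels are given as CPM, counts scaled to the library total. Of the 36 members, 10 had 0 counts in all 24 libraries, which allows up to 0.0742 CPM in the deepest and 0.207 CPM in the shallowest library (3 counts). A further 4 members had counts but did not reach 0.5 CPM in any library, with at most 39 counts over all libraries. The filter of 0.5 CPM in at least 1 library kept 21 members in the “Remission Phase”, 20 in the “Clinical Phase” and 22 in the fit of all 24 libraries. Of these 22 members, 13 had a mean above 50 CPM and held 99.8% of the block's CPM. The limit of 50 CPM was chosen after the values were seen.

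Among the libraries, 1 stood apart. For allergic horse A6, the library of the “Remission Phase” had a TMM factor, which scales the library size, of 0.731. The other libraries of that phase had factors between 0.903 and 1.11. It also had counts on the fewest genes, 11802, and the lowest total of that phase, 17558184. Some values are therefore also given without horse A6.

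The whole block took 1.08% to 2.01% of a library's counts on genes. For the “Remission Phase”, the share in allergic horses was 1.08% at the lowest, in A6, 1.48% at the median and 1.59% at the highest. In the order H1, H2, H4, H6 and H7, which is kept below, healthy horses had 1.75%, 1.77%, 1.598%, 1.76% and 1.53%. The 2 groups overlapped through healthy horse H7, and the means were 1.41% ± 0.174 (SD, n = 7) and 1.68% ± 0.110 (SD, n = 5). The 95% Wilson interval of a single share was at most 0.00722 percentage points wide on either side, which covers counting error only. In such bulk samples, fewer cells with a transcript and less of it per cell cannot be told apart.

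In summer, during the “Clinical Phase”, the block's share in allergic horses was 1.26% at the lowest, 1.45% at the median and 1.56% at the highest. The healthy horses had 1.48%, 1.48%, 1.59%, 2.01% and 1.92%. Horses H1 and H2 lay within the allergic range and H6 and H7 well above it. The means were 1.41% ± 0.129 (SD, n = 7) and 1.70% ± 0.248 (SD, n = 5). The mean difference, allergic minus healthy, was -0.277 percentage points (Remission) and -0.290 percentage points (Clinical). Dividing by TMM effective library sizes, which raises the share of A6, gave -0.105 in the “Remission Phase”.

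Between phases the block's share moved in both directions. It was higher in the “Clinical Phase” in 3 of 7 allergic horses, with a mean change of 0.00156 ± 0.206 percentage points (SD, n = 7). It was higher in 2 of 5 healthy horses, with a mean change of 0.0155 ± 0.299 (SD, n = 5). On library totals, the mean change was far smaller than the spread between horses in both groups. With TMM effective library sizes, the mean change was -0.0281 in allergic and 0.116 in healthy horses. Without the most-counted member it was 0.0367 ± 0.0667 (SD, n = 7), with 5 of 7 allergic horses higher, and 0.0972 ± 0.160 (SD, n = 5), with 3 of 5 healthy horses higher. No test of the share was made.

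**Figure D1:**
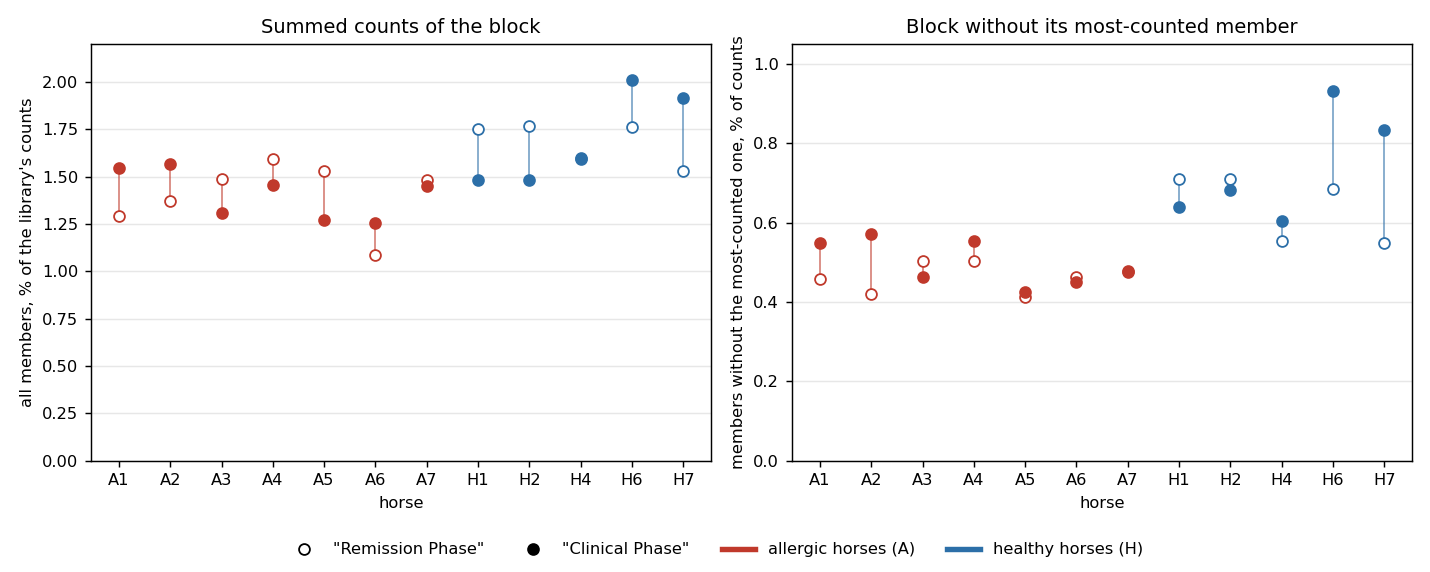
Share of each library's counts on genes taken by the block (left) and by the block without its most-counted member (right), in percent, by horse. Open circles are the “Remission Phase”, filled circles the “Clinical Phase”, a line joins both libraries of a horse, and red and blue mark allergic and healthy horses. Without the most-counted member, allergic horses lay between 0.412% and 0.571% and healthy horses between 0.549% and 0.932% over both phases.

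Most of the block's counts fell on ENSECAG00000027689, which held 57.3% to 73.1% of them in allergic horses and 59.5% to 65.4% in healthy horses during the “Remission Phase”. Its share was 62.0% to 67.0% in allergic horses and 53.6% to 62.1% in healthy horses in the “Clinical Phase”. Gene lengths were not used here, so shares of counts do not rank members by transcript number. Without this member, the block's share during the “Remission Phase” was 0.412% to 0.503% in allergic horses and 0.549% to 0.709% in healthy horses. The ranges were 0.425% to 0.571% and 0.603% to 0.932% in the “Clinical Phase”. On library totals, healthy horses lay above all allergic horses in each phase, which is a description, since the block was chosen on this contrast. With TMM effective library sizes, tried after the data were seen, the groups overlapped in both phases. Allergic horse A6 then had 0.633% in the “Remission Phase”, above H4 with 0.501% and H7 with 0.523%. Allergic horse A1, with 0.506%, also lay above H4 in that phase. In the “Clinical Phase”, A2 had 0.597%, above H4 with 0.580%.

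The ATP6-matched gene was lower in all 7 allergic horses than in 4 of the 5 healthy horses in both phases. In the “Remission Phase”, allergic horses had 162 CPM at the lowest, 342 at the median and 527 at the highest. Healthy horses H1, H2, H6 and H7 had 1853, 1759.9, 1653 and 1315 CPM, and H4 had 526.02. Horse H4 thus lay inside the allergic range, and the gap between the 8 lower and the 4 higher horses was 2.49-fold. Allergic horses had 267 CPM at the lowest, 418 at the median and 553 at the highest in the “Clinical Phase”. Healthy horses H1, H2, H6 and H7 had 1219.7, 1316, 1986 and 1885 CPM, and H4 had 458. The same 4 healthy horses stood above the other 8 horses in both phases, by 2.21-fold in this phase.

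As a share of the block's own counts, the ATP6-matched gene made up 2.41% ± 0.641 (SD, n = 7) in allergic and 8.36% ± 2.93 (SD, n = 5) in healthy horses during the “Remission Phase”. The values of the “Clinical Phase” were 3.06% ± 0.642 (SD, n = 7) and 7.94% ± 2.91 (SD, n = 5). Healthy horse H4 had 3.29% and 2.87%, while the other 4 healthy horses had 8.59% to 10.6% and 8.22% to 9.89%. This describes the contrast that chose the gene, on another denominator. The mean difference, allergic minus healthy, was -5.95 percentage points (Remission) and -4.87 percentage points (Clinical), and without H4 it was -7.22 and -6.14.

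The ND5-matched gene showed a similar order of horses at lower CPM. In the “Remission Phase”, allergic horses had 26.0 CPM at the lowest, in A6, 75.0 at the median and 109.7 at the highest. Healthy horses had 281, 244, 105, 326 and 248 CPM. Only H4 lay inside the allergic range. Allergic horses had 114 CPM at the lowest, 201 at the median and 211 at the highest in the “Clinical Phase”. The healthy horses then had 406, 499.7, 201, 743 and 445 CPM. H4 again lay among the allergic horses and the other 4 healthy horses above them.

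The KEF40-matched gene differed between groups in the phase on which it was chosen, the “Clinical Phase”. Allergic horses then had 128 CPM at the lowest, 239 at the median and 336 at the highest. The healthy horses had 916, 411, 298, 1047 and 809 CPM, so that only H4 lay inside the allergic range. During the “Remission Phase”, allergic horses had 95.8 CPM at the lowest, 175 at the median and 569 at the highest, and healthy horses had 319, 418, 175, 311 and 356 CPM in the same order. The groups overlapped widely. The 2 highest of all 12 horses were then allergic, A1 with 569 and A6 with 495 CPM, and in the “Clinical Phase” they had 239 and 139 CPM.

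**Figure D2:**
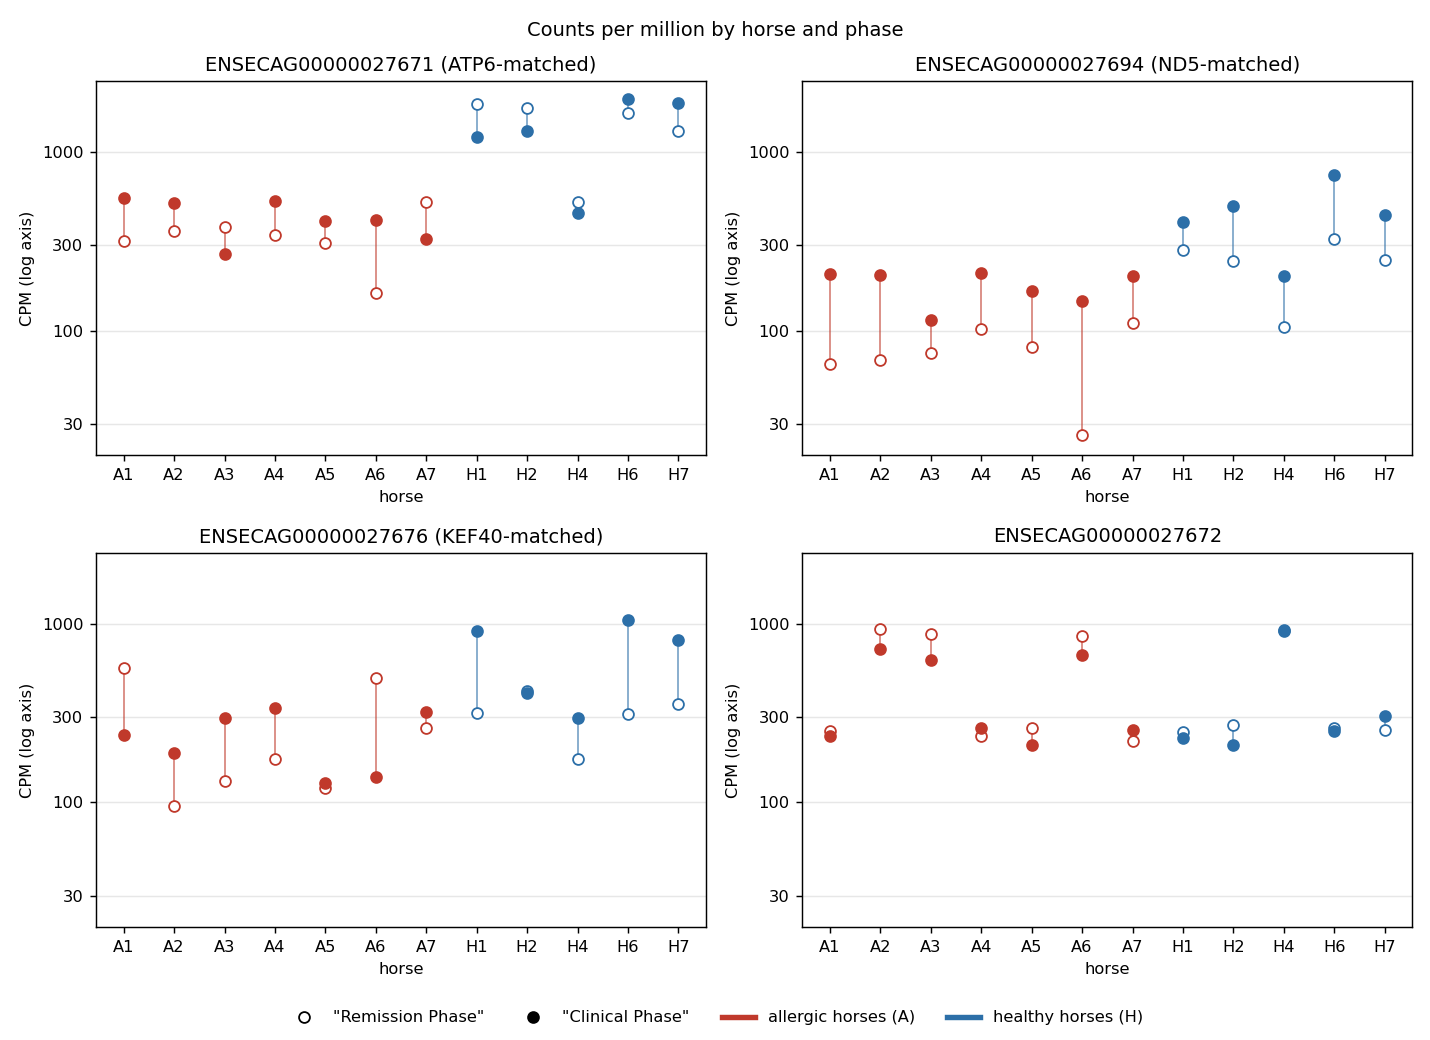
Level of the ATP6-, ND5- and KEF40-matched genes and of ENSECAG00000027672 in each horse, in CPM on a log axis. Open circles are the “Remission Phase”, filled circles the “Clinical Phase”, and red and blue mark allergic and healthy horses. In both phases, the ATP6-matched gene was highest in 4 healthy horses, with H4 among the allergic horses, and ENSECAG00000027672 was high in A2, A3, A6 and H4.

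Fold changes between allergic and healthy horses within a phase are given next as a description, with SE and without a test, since the members were chosen on this contrast. On the log2 scale, the ATP6-matched gene had -1.92 ± 0.26 (SE, Remission) and -1.63 ± 0.27 (SE, Clinical). The ND5-matched gene had -1.57 ± 0.27 and -1.32 ± 0.23. The KEF40-matched gene had -0.0020 ± 0.47 and -1.53 ± 0.29. Thus the first 2 genes were lower in allergic horses in both phases and the last in the “Clinical Phase” only, although the test of that difference between phases, given further on, did not pass. Without H4, the ATP6-matched gene had -2.14 ± 0.18 and -1.86 ± 0.19.

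In the “Remission Phase”, edgeR's quasi-likelihood test called 1 member lower in allergic horses, the ATP6-matched gene. It was the only gene called in that phase, 0.00789% of 12670. The gene was chosen on this contrast in the same libraries, so its call is no independent result. With 1 horse left out, the count of members was 0 for each of A1 to A6, H1, H2, H6 and H7, 1 without A7 and 2 without H4. Over all genes, the calls were then 0.00792% without A7, 0.0317% without H4, 0.00793% without H6 and 0% without each other horse. DESeq2 called 3 members lower and 1 higher, with 0.268% of all genes called in either direction. The 3 lower members were the ATP6- and ND5-matched genes and ENSECAG00000027675, and the higher one was ENSECAG00000027674, with 7.12 to 25.6 CPM over the 12 horses.

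In the “Clinical Phase”, edgeR called 0 members and 0% of 13315 genes, with 444 genes and 8 of 20 members at an unadjusted p under 0.05. DESeq2 called 5 members lower, against 0.0451% of all genes called lower and 0.0676% called in either direction. These were the ATP6-, ND5- and KEF40-matched genes, ENSECAG00000027669 and ENSECAG00000027675. Without H4, edgeR called 4 members and 0.0452% of all genes, and without a filter on low counts 3 members and 0.0235%. Nothing is read from the counts of either phase, because the same contrast chose the block.

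On library totals, levels of allergic and healthy horses did not overlap for ENSECAG00000027675 in either phase. It is not among the genes matched by value and is named after its values were seen. In the “Remission Phase”, allergic horses had 18.4 to 69.5 CPM with a median of 47.1, and healthy horses H1, H2, H4, H6 and H7 had 129.8, 118, 72.2, 127 and 90.3 CPM. The “Clinical Phase” gave 55.3 to 94.4 CPM with a median of 79.4 in allergic horses, and healthy horses had 133, 178, 102, 208 and 168 CPM in the same order. H4 was the lowest healthy horse in both. ENSECAG00000027675 was the only member of 21 in the “Remission Phase” whose groups did not overlap, against 1.77% of all genes tested. With TMM effective library sizes its groups overlapped in that phase, with 65.5 CPM in A4 and 65.3 CPM in H4. With the factors of the phase, the 1 member without overlap was then ENSECAG00000027674, with 16.44 CPM in A2 and 16.42 CPM in H4, against 1.51% of all genes. With the factors of all 24 libraries it was 0 members, against 1.49%. Both separations of that phase thus turn on the scaling.

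In the “Clinical Phase”, ENSECAG00000027669 joined it, which made 2 of 20 members against 0.128% of all genes, and the same 2 members did not overlap with TMM effective library sizes, against 0.165% of all genes. Allergic horses had 547 to 747 CPM of ENSECAG00000027669 in that phase, with a median of 640.2, and healthy horses 815 to 1051 CPM, with a median of 909. During the “Remission Phase” its groups overlapped, with 442 to 726 CPM in allergic and 633 to 898 CPM in healthy horses. On the log2 scale it had -0.32 ± 0.13 (SE) and -0.50 ± 0.10 in the 2 phases, and that of ENSECAG00000027675 was -1.10 ± 0.21 and -0.97 ± 0.15.

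**Figure D3:**
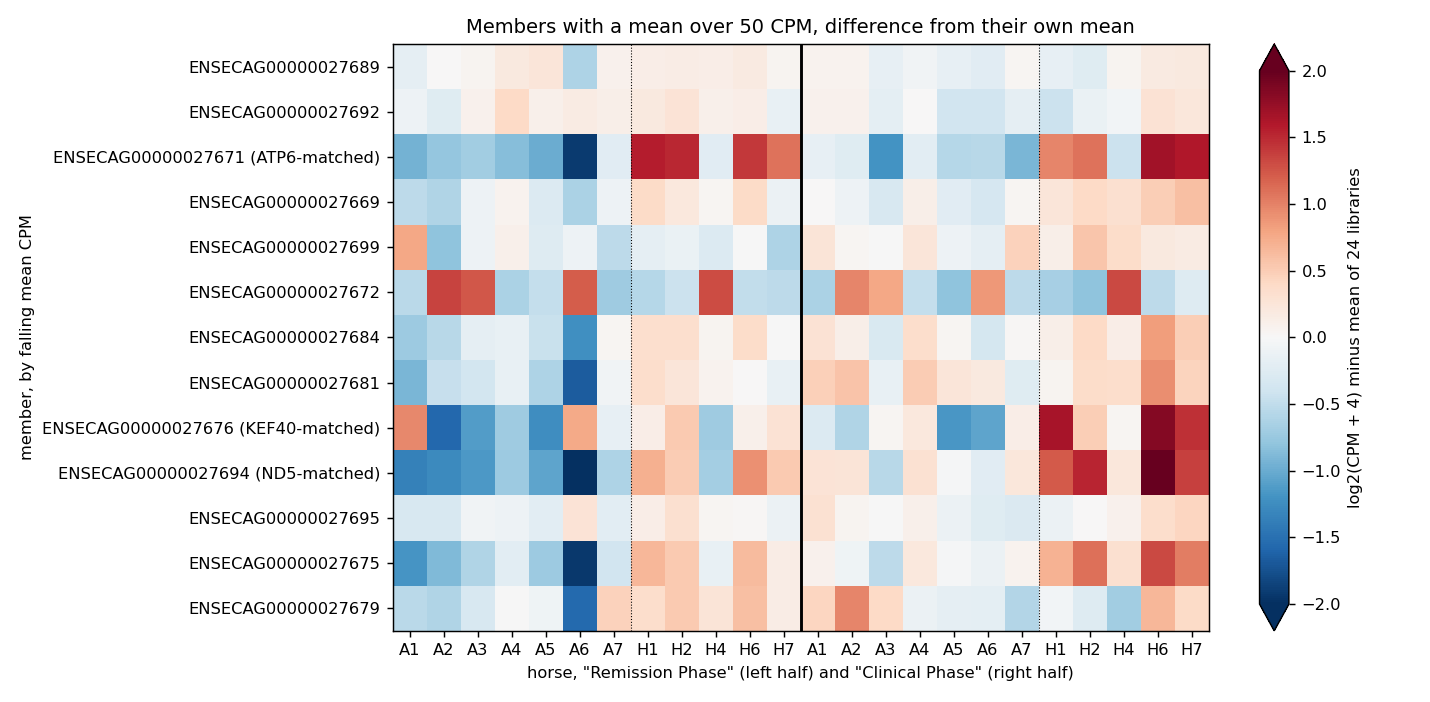
The 13 members with a mean above 50 CPM (top to bottom by falling mean) in the 24 libraries (left to right), coloured by log2(CPM + 4) minus the member's mean over all libraries. The left side is the “Remission Phase”, the right side the “Clinical Phase”, and dotted lines part allergic from healthy horses. The ND5-matched gene is higher on the right than on the left for all 12 horses, and ENSECAG00000027672 is high in A2, A3, A6 and H4 on both sides.

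The comparison of phases within a group was not itself used to choose the block, but it shares its libraries with the contrast that was. In particular, the ATP6- and ND5-matched genes were chosen for low values in the “Remission Phase” libraries of allergic horses, so their change between phases in these horses is not independent of the choice. It asks how the members changed from winter, without allergen, to summer, in horses with and without allergy. The ND5-matched gene was higher in the “Clinical Phase” in all 7 allergic and all 5 healthy horses. The ratio of its CPM, “Clinical Phase” over “Remission Phase”, was 1.45 at the lowest, 2.06 at the median and 5.59 at the highest, in A6. As a share of the block's counts, it made up 0.521% ± 0.154 and 1.26% ± 0.194 (SD, n = 7) in allergic horses in the 2 phases, and 1.42% ± 0.460 and 2.68% ± 0.956 (SD, n = 5) in healthy horses. Among the 22 members tested, ENSECAG00000027675 was also higher in all 12 horses, with ratios of 1.03 at the lowest, 1.57 at the median and 4.05 at the highest. Of all 13597 genes, 2.07% were higher in all 12 horses and 1.75% lower, and 0 members were lower in all of them. With TMM effective library sizes, the same 2 members were higher in all 12 horses, against 2.57% of all genes.

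In allergic horses, edgeR called 4 of 22 members higher in the “Clinical Phase”, while 5.94% of all 13597 genes were called higher. It called 0 members lower, while 3.8% of all genes were called lower. At an unadjusted p under 0.05 it found 9 of the 22 members and 26.8% of all genes in either direction. The 9 include ENSECAG00000027688, which passed the filter of 0.5 CPM only through allergic horses of the “Remission Phase”, where it was higher. Nothing is read from its part in that count. The ND5-matched gene rose by 1.26 ± 0.25 (SE, adjusted p = 0.0032 from edgeR) on the log2 scale. Its low “Remission Phase” values in these horses were part of its choice, so this call is no independent evidence of a rise. ENSECAG00000027681 rose by 0.80 ± 0.16 (adjusted p = 0.0032 from edgeR) and was higher in 6 of 7 horses. ENSECAG00000027675 rose by 0.77 ± 0.18 (adjusted p = 0.011 from edgeR). ENSECAG00000027684 rose by 0.46 ± 0.13 (adjusted p = 0.028 from edgeR). It was higher in 5 of 7 horses on library totals and in 6 of 7 with TMM effective library sizes. The last 3 are named after their values were seen. Over all genes these shares varied with the fit, at 8.25% higher and 5.22% lower with DESeq2, 3.51% higher and 1.83% lower with horse as a replicate block, 2.74% and 1.26% without A1, 3.12% and 1.35% without A2, and 3.04% and 1.20% without A6.

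The CPM behind these calls overlapped between phases for the members named by identifier alone. ENSECAG00000027681 had 108 CPM at the lowest, 253 at the median and 334 at the highest in allergic horses during the “Remission Phase”, and 295, 415 and 523 CPM during the “Clinical Phase”. ENSECAG00000027684 had 166, 288 and 404 CPM, and then 310.0, 407 and 506 CPM. The ND5-matched gene did not overlap, with its highest “Remission Phase” value of 109.7 CPM below its lowest “Clinical Phase” value of 114 CPM.

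The first 3 calls were made under all 19 alternatives, and that of ENSECAG00000027684 under 17, with an adjusted p up to 0.108 from edgeR without A1 or A2. Without A6, whose “Remission Phase” library had the lowest levels of all 4 genes, edgeR gave 1.16 ± 0.24 (SE) for the ND5-matched gene, 0.69 ± 0.15 for ENSECAG00000027681, 0.65 ± 0.17 for ENSECAG00000027675 and 0.43 ± 0.12 for ENSECAG00000027684. All 4 were called there. The “Remission Phase” library was the deeper one in all horses but A6 and H2, and after thinning to the lowest total the same 4 members were called. Whether the phases differed in any step of sorting or sequencing was not tested.

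In healthy horses, edgeR called 0 of 22 members between phases, while 0.912% of all genes were called higher and 0.427% lower. At an unadjusted p under 0.05 it found 7 members and 15.6% of all genes, and DESeq2 called 2 members and 3.85% of all genes. Over all genes, edgeR's count of 124 higher became 2 without H2 or H7, 7 without H1, 14 without H4, 240 without H6 and 422 without A6, and its count of 58 lower became 0 without H2 or H7, 1 without H1, 8 without H4, 37 without A2, 174 without H6 and 334 without A6. The ND5-matched gene was higher in 5 of 5 horses, with a log2 fold change of 1.01 ± 0.29 (SE) and an adjusted p of 0.075 from edgeR. In the paired fit with horse as a replicate block, it was the 1 member called, at 1.00 ± 0.17 (SE) and an adjusted p of 0.026 from edgeR, while 0.53% of all genes were called higher. DESeq2, with 1.02 and an adjusted p of 0.014, limma voom, with an adjusted p of 0.042, and edgeR without A6, with an adjusted p of 0.028, also called it. Over all alternatives its adjusted p ranged from 0.014 to 0.398. The other members that rose in allergic horses had positive values here too, 0.64 ± 0.21 for ENSECAG00000027675, 0.43 ± 0.18 for ENSECAG00000027681 and 0.28 ± 0.15 for ENSECAG00000027684, and did not pass the test. Without A6, ENSECAG00000027675 passed it, with an adjusted p of 0.046 from edgeR.

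The second member that DESeq2 called in healthy horses was ENSECAG00000027686, which lay near the limit of detection. It had 0 counts in all 5 healthy libraries of the “Remission Phase”, and between 0 and 0.524 CPM, at most 12 counts, in the “Clinical Phase”. Allergic horses had up to 0.378 CPM and up to 0.308 CPM in the 2 phases. ENSECAG00000027686 passed the filter of 0.5 CPM only through healthy horses of the “Clinical Phase”, the group where it was higher. Nothing is therefore read from its calls, or from its part in the counts of members. The adjusted p from edgeR was 0.055, and no fold change is given at this depth.

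The ATP6-matched gene did not pass the same test in either group, which does not show that it was unchanged. It was higher in the “Clinical Phase” in 5 of 7 allergic and 2 of 5 healthy horses, with log2 fold changes of 0.33 ± 0.26 (SE) and 0.038 ± 0.31. The KEF40-matched gene had -0.31 ± 0.38 in allergic horses, where A1 and A6 were lower in the “Clinical Phase” and the other 5 higher. Its sign there turned to 0.12 without A6. Among healthy horses it had 1.22 ± 0.46 and an adjusted p of 0.175 from edgeR. It was higher in 4 of 5 healthy horses on library totals and in 5 of 5 with TMM effective library sizes. The KEF40-matched gene was chosen on the group difference of the “Clinical Phase”, so its change between phases is not independent of the choice. The most-counted member, ENSECAG00000027689, had -0.08 ± 0.08 and -0.03 ± 0.10, and ENSECAG00000027692 had -0.26 ± 0.12 and -0.02 ± 0.15.

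Over the 13 members above 50 CPM, 9 had a positive log2 fold change between phases in allergic horses, with a median of 0.15, against -0.02 over all 3125 genes above 50 CPM. In healthy horses 10 were positive, with a median of 0.28 against 0.07. No test of the list was made. The members thus moved apart from each other, from -0.35 to 1.26 in allergic and from -0.23 to 1.22 in healthy horses.

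Whether the difference between groups itself differed between phases was tested in the same fit. By edgeR, 0 members and 0% of all genes passed, with 505 genes and 2 members at an unadjusted p under 0.05, and DESeq2 and limma voom called 0 genes as well. The ND5-matched gene had 0.25 ± 0.37 (SE) on the log2 scale, and its rise was therefore not shown to differ between allergic and healthy horses. The KEF40-matched gene had -1.53 ± 0.60, and -1.09 ± 0.56 without A6. These values are not independent of the choice of the genes, since the KEF40-matched gene was chosen on the group difference of the “Clinical Phase” and the ND5-matched gene on that of the “Remission Phase”.

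**Figure D4:**
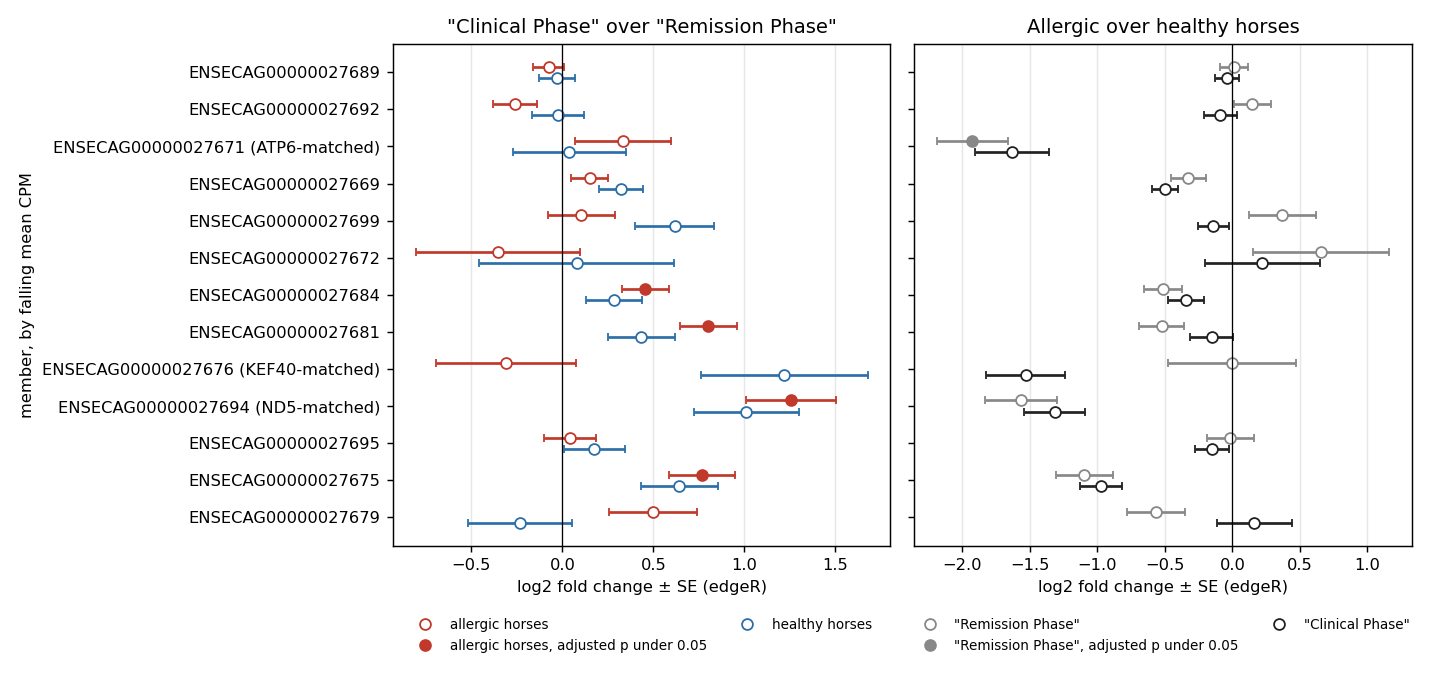
Log2 fold changes with SE from edgeR for the 13 members with a mean above 50 CPM. Left, “Clinical Phase” over “Remission Phase” in allergic (red) and healthy (blue) horses; right, allergic over healthy horses in the “Remission Phase” (grey) and the “Clinical Phase” (black), a contrast that chose the block. Filled points have an adjusted p under 0.05 over all genes tested, which are 4 points on the left, all in allergic horses, and 1 on the right.

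Co-variation between horses was measured as the correlation of log2(CPM + 4) after the group mean was subtracted, so that the contrast that chose the block was left out. Over 3 pairs of matched genes in 2 phases and 3 genes between phases, 9 relations were tested over 12 horses, with two-sided permutation tests and Benjamini-Hochberg adjustment over the 9. The ATP6- and ND5-matched genes varied together. For the “Remission Phase”, Pearson's r was 0.92 (permutation p = 0.0013, adjusted 0.0059) and Spearman's rho 0.69 (permutation p = 0.017, adjusted 0.077). The “Clinical Phase” gave r = 0.88 (permutation p = 0.00043, adjusted 0.0039) and rho = 0.81 (permutation p = 0.0022, adjusted 0.020). That rho no longer passed with TMM factors computed without the members, at 0.72 (adjusted permutation p = 0.096), or as a share of the block, at 0.60 (adjusted permutation p = 0.13). Pearson's r passed in both phases under these alternatives, at 0.89 and 0.89 (adjusted permutation p = 0.0043 for each) and at 0.87 and 0.84 (adjusted permutation p = 0.016 for each). Without the 2 horses farthest from the median, H4 and A6 in the first and H4 and A3 in the second phase, r was 0.55 (permutation p = 0.10) and 0.57 (permutation p = 0.078). Without them, r was 0.45 and 0.51 with TMM factors computed without the members. As a share of the block it was 0.43 and 0.19. The relation thus rests on those horses.

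For the KEF40-matched gene, no relation passed the same tests, and no test compared it with the relation above. During the “Remission Phase”, its r was -0.012 (permutation p = 0.97, adjusted 0.97) with the ATP6-matched and -0.17 (permutation p = 0.60, adjusted 0.77) with the ND5-matched gene, and rho was 0.14 (permutation p = 0.67, adjusted 0.82) and -0.077 (permutation p = 0.82, adjusted 0.82). During the “Clinical Phase”, r was 0.47 (permutation p = 0.12, adjusted 0.18) and 0.54 (permutation p = 0.069, adjusted 0.15), and rho was 0.48 (permutation p = 0.12, adjusted 0.22) and 0.58 (permutation p = 0.053, adjusted 0.16). Without the 2 farthest horses, r was 0.13 and -0.053 in the first and 0.33 and 0.54 in the second phase, the last being close to the 0.57 of the ATP6- and ND5-matched genes. The 0.54 and the 0.57 became 0.41 and 0.51 with TMM factors computed without the members. As a share of the block they became 0.28 and 0.19.

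Between phases of a horse, none of the 3 matched genes passed after adjustment. For the ND5-matched gene, r was 0.66 (permutation p = 0.022, adjusted 0.067) and rho 0.48 (permutation p = 0.12, adjusted 0.22). For the ATP6-matched gene, r was 0.48 (permutation p = 0.12, adjusted 0.18) and rho 0.12 (permutation p = 0.72, adjusted 0.82). For the KEF40-matched gene, r was 0.11 (permutation p = 0.72, adjusted 0.81) and rho 0.11 (permutation p = 0.73, adjusted 0.82). Without the 2 farthest horses, r was 0.36, -0.38 and 0.059. For the ND5-matched gene, r was 0.71 (adjusted permutation p = 0.049) with TMM factors computed without the members, and rho was 0.64 (permutation p = 0.030, adjusted 0.13) as a share of the block. Missing the threshold with 12 horses does not show that the order of the horses was lost.

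ENSECAG00000027672 behaved otherwise. It was high in allergic horses A2, A3 and A6 and in healthy horse H4, in both phases, and low in the other 8 horses. During the “Remission Phase”, these 4 horses had 939.97, 877, 857 and 912 CPM, while the other 8 had 221 to 271 CPM. During the “Clinical Phase”, the same 4 had 723, 628, 671 and 923 CPM, and the other 8 had 209 to 307 CPM. No horse lay between, and the gap was 3.16-fold in the first and 2.05-fold in the second phase. Horse H4, which had the lowest ATP6-matched level of the healthy horses, was the only healthy horse with a high level. Among the other 3, A6 had the lowest ATP6-matched level of all 12 horses in the “Remission Phase”, 162 CPM, and A3 the lowest in the “Clinical Phase”, 267 CPM. In the other phase A6 had 418 and A3 381 CPM, and A2 had 361 and 519.5 CPM, all within the range of the remaining allergic horses.

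Within a group, the SD of ENSECAG00000027672 between horses was 0.88 on the log2(CPM + 4) scale, while the median change between phases of a horse was 0.23. Its SD ranked 49 among the 3125 genes above 50 CPM. For the ND5-matched gene, the SD was 0.57 and the median change 1.02, and for the KEF40-matched gene 0.75 and 1.06. The ATP6-matched gene had 0.62 and 0.52. Over the 13 members above 50 CPM the median SD was 0.39 and the median change 0.48, against 0.25 and 0.18 over all 3125 genes above 50 CPM. Between groups, ENSECAG00000027672 had log2 fold changes of 0.66 ± 0.50 (SE) and 0.22 ± 0.43 in the 2 phases. These values depended on single horses, at 1.22 ± 0.49 and 0.82 ± 0.37 without H4 and at 0.37 ± 0.48 and 0.058 ± 0.42 without A6.

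Of the other abundant members, ENSECAG00000027689, ENSECAG00000027692 and ENSECAG00000027699 were more even. Their SD between horses within a group was 0.20, 0.22 and 0.33 on the log2(CPM + 4) scale. For ENSECAG00000027679, named after its values were seen, that SD was 0.52. Its ratio of CPM, “Clinical Phase” over “Remission Phase”, ran from 0.46 to 3.15. ENSECAG00000027689 had 6217 CPM in the “Remission Phase” library of A6 and 8334 to 11197 CPM in the other 11 libraries of that phase. Its range was 8018 to 10839 CPM in the “Clinical Phase”. ENSECAG00000027692 had 1178 to 1846 CPM (Remission) and 1030.4 to 1715 CPM (Clinical), and its groups overlapped in both. ENSECAG00000027699 had 879 CPM in A1 during the “Remission Phase” and 293 to 552 CPM in the other 11 horses, and 451 to 754 CPM during the “Clinical Phase”. On library totals, A1 was thus the highest horse of the “Remission Phase” for both ENSECAG00000027699 and the KEF40-matched gene. With TMM effective library sizes, A6 was the highest horse for the KEF40-matched gene, with 678 CPM.

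Of the 9 members kept with a mean below 50 CPM, 7 had a mean below 2 CPM. The other 2 were ENSECAG00000027674, with a mean of 15.0 CPM, and a member with a mean of 4.54 CPM. ENSECAG00000027674 was lower in the “Clinical Phase” in all 7 allergic horses, with a log2 fold change of -0.46 ± 0.19 (SE) and an adjusted p of 0.111 from edgeR, and lower in 3 of 5 healthy horses. It was also among the members with a positive value between groups in both phases, 0.97 ± 0.22 and 0.64 ± 0.19. Among the 7 members with a mean below 2 CPM, ENSECAG00000027665, named after its values were seen, was higher in the “Clinical Phase” in 7 of 7 allergic and 4 of 5 healthy horses. In allergic horses it had 0 to 1.41 CPM in the “Remission Phase” and 0.201 to 2.42 CPM in the “Clinical Phase”. Its log2 fold change there was 1.55 ± 0.59 (SE), with an adjusted p of 0.092 from edgeR. It was called by DESeq2, with an adjusted p of 0.039, and in the paired fit with horse as a replicate block, at 1.81 ± 0.47 and an adjusted p of 0.037 from edgeR.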

How the data were processed

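The authors trimmed single-end reads with Trim Galore 0.6.0, mapped them to EquCab3.0 with STAR 2.7.0e and deposited unnormalized counts, with genes given as Ensembl identifiers. The counting tool and annotation release are not stated there. All 24 libraries list the same 30371 genes, and 0 pairs of libraries were identical. The members, lists and tests were chosen with earlier results of these data known.

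Genes reaching 0.5 CPM in 1 library or more were tested with edgeR 4.0.16 (quasi-likelihood, TMM, Benjamini-Hochberg over all genes, adjusted p under 0.05) in R 4.3.3. Groups were compared within each phase, and phases in 1 fit of 24 libraries with 4 groups. DESeq2 1.42.0 and limma 3.58.1 (voom with quality weights) were alternatives. Others were RLE factors, no filter, members left out of library sizes, horse as a block, thinning to the lowest total, and each horse left out. Fits were also run on simulated data with 200 changed genes, and no result given here rests on them. Permutation tests used 100000 draws. Replicates are separate horses.

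Named genes are the 3 genes matched by value and the 5 other members with the highest mean CPM, and others are named where a small count called for it. The library codes give the horse in both phases. Over 13597 genes, the mean correlation of deviations from group means was 0.234 for libraries of the same horse and -0.0210 for different horses. It was above 0.1 for 9 of 12 horses and lowest, -0.117, for H2.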

Additional observations from a re-analysis of the deposited data

Results flagged for a closer look

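In 40 groups of 5 or 7 horses, the values of the named genes, the block's share and the ATP6-matched share of the block were searched for a horse far from the others of its group. Chance gives such a horse in about 1 of 20 groups. All 4 values found belong to healthy horse H4. Its level of ENSECAG00000027672 was 912 CPM in the “Remission Phase” and 923 CPM in the “Clinical Phase”, far above the other 4 healthy horses. Its ATP6-matched share of the block was 3.29% and 2.87%, far below them. The study lists RNA quality by numbered horses. If these numbers follow the order of the codes, the “Clinical Phase” sample of H4 had the lowest RNA quality of the series, while its “Remission Phase” sample, with similar values here, was among the highest. RNA quality was not tested.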

How the results depend on the processing

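Members called between groups changed with the test. In the “Remission Phase” the count of 1 became 4 with DESeq2 (0.268% of all genes) and 0 with limma voom (0%), and 0 to 2 with a horse left out (0% to 0.0317%). In the “Clinical Phase” the count of 0 became 5 with DESeq2 (0.0676% of all genes), 3 without a filter (0.0235%), and 0 to 4 with a horse left out (0% to 0.0452%, 4 without H4). Between phases in healthy horses the count of 0 (1.34% of all genes) became 2 with DESeq2 (3.85%), 3 with limma voom (10.6%), 1 with horse as a replicate block (0.927%), and 0 to 3 with a horse left out (0.0148% to 5.61%, 3 without A6). The counts with DESeq2, with limma voom and without A6 include ENSECAG00000027686. That member passed the filter only through the group where it was higher, so nothing is read from its part in them. In allergic horses the count of 4 (9.74% of all genes) ranged from 3 to 5 (4.0% to 13.5%), and the difference between phases gave 0 in all alternatives. The fit with horse as a replicate block was run only for the comparisons between phases and for their difference between groups. Among these, no other count of members changed by over 1.5 times. Over all genes, the counts in allergic horses went from 807 higher and 517 lower to 477 and 249, and in healthy horses from 124 and 58 to 72 and 54. Members without overlap between groups numbered 1 and 2 in the 2 phases, and with TMM effective library sizes, an alternative chosen after seeing the data, 1, another member, and 2 with the factors of each phase (1.51% and 0.165% of all genes), and 0 and 2 with the factors of 24 libraries (1.49% and 0.165%). Without its most-counted member, the ATP6-matched share of the block differed by -14.3 and -9.34 percentage points between groups in the 2 phases, by construction. With a horse left out, it ranged from -7.22 to -5.39 and from -6.14 to -4.39, and the block's share differed by -0.314 to -0.223 and by -0.344 to -0.213 percentage points. Its change between phases ranged from -0.0408 to 0.0456 in allergic and from -0.0771 to 0.0896 in healthy horses. With TMM effective library sizes, that change was -0.0281 and 0.116.

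For the correlations, ATP6- with KEF40-matched gene in the “Remission Phase” turned to 0.085 with TMM factors computed without the members and to 0.052 as a share of the block, and the ND5-matched gene between phases reached 0.71 with an adjusted p of 0.049 (permutation test) with those TMM factors. Log2 fold changes near 0 turned sign without passing the test. Between groups in the “Remission Phase”, the KEF40-matched gene had 0.018 with DESeq2, 0.017 with RLE factors and -0.35 to 0.16 with a horse left out, and ENSECAG00000027689 had -0.035 to 0.041. In the “Clinical Phase”, ENSECAG00000027689 had -0.085 to 0.034, ENSECAG00000027692 had -0.17 to 0.00060, and ENSECAG00000027672 had -0.067 with limma voom. Between phases in allergic horses, the KEF40-matched gene had 0.41 with limma voom, 0.066 with the replicate block and -0.51 to 0.12 with a horse left out, and ENSECAG00000027699 had -0.036 to 0.29. In healthy horses, the ATP6-matched gene had -0.15 with limma voom and -0.15 to 0.18 with a horse left out, ENSECAG00000027689 had -0.11 to 0.025 and ENSECAG00000027692 had -0.16 to 0.083. The causes of these changes were not tested. Of the other fold changes of named genes under the alternatives, 522 kept their sign and side of the threshold, 16 passed it and 11 no longer did.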
